A study of Mus musculus with 18 samples.

Results

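The expression of 39 genes of DNA replication and S phase was measured in mouse bone marrow-derived macrophages. The genes were chosen by name, and all 39 were found among the 21380 gene identifiers of the deposited expression table. Cells flushed from femoral marrow were cultured for 7 days with macrophage colony-stimulating factor (M-CSF, 30 ng/mL, beside 15% serum), the cytokine that keeps macrophage precursors dividing. The 6 groups were Ldha knockout (KO) and wild-type (WT) cells with interferon gamma (IFN-gamma) for 24 h, KO and WT cells with interleukin 4 (IL-4) for 24 h, and KO and WT cells left untreated, with 3 libraries each. Ldha encodes the A chain of lactate dehydrogenase. Every group carried the same medium and M-CSF, and libraries of the 3 treatments share numbers in the labels that are taken here as 6 animals, 1 library per animal and treatment. The sources used here do not give the KO allele, any Cre driver, or the strain, sex and age of the animals.

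Assigned reads ran from 9.77 M (WT IL-4 replicate 2) to 49.5 M per library, with a median of 30.9 M, and the 39 genes took 0.0624 to 0.13% of them. Ldha averaged 9543 ± 507 normalized counts in KO and 37282 ± 1425 in WT cells with IFN-gamma, 4183 ± 67.8 in KO and 23854 ± 1159 in WT cells with IL-4, and 2327 ± 238 in KO and 11618 ± 796 in WT untreated cells (SD, n = 3 each). The libraries of the 2 genotypes did not overlap in any treatment. Lyz2, a lysozyme gene of myeloid cells, differed far more, with 784 ± 92.2 in KO and 631574 ± 64830.3 in WT untreated cells. Loss of Ldha and the difference in Lyz2 therefore cannot be told apart in any comparison of KO with WT. The macrophage markers were present in all libraries, with summed levels over 10 genes of 211537 to 323498 normalized counts. Summed stromal cell markers (10 of 12 listed genes were in the table, with Pdgfra and Dcn under 10 normalized counts in every library) were 414 to 1349 in KO and 238 to 480 in WT cells with IFN-gamma, 951 to 2236 in KO and 875 to 1984 in WT cells with IL-4, and 613 to 2279 in KO and 287 to 751 in WT untreated cells. Dendritic cell markers (4 of 7 listed genes were in the table) summed to 1802 to 2634 in KO and 2240.2 to 3260.2 in WT cells with IFN-gamma, 17715 to 22136 in KO and 20993 to 26271 in WT cells with IL-4, and 1034 to 2065 in KO and 1812 to 2737 in WT untreated cells. Progenitor markers (6 of 7 in the table) summed to 41599 to 43104 in KO and 37252 to 44024 in WT cells with IFN-gamma, nearly all of it Ly6a (means of 42493 in KO and 40801 in WT cells), to 137 to 350.2 in KO and 75.0 to 250.1 in WT cells with IL-4, and to 179 to 269 in KO and 74.9 to 105 in WT untreated cells, with Myb under 10 in every library. The part of these markers in the results was not tested.

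A cell that prepares to divide copies its genome once. The origin recognition complex, CDC6 and CDT1 load the ring-shaped MCM helicase at origins, and CDC45, the GINS complex and MCM10 switch it on at the start of S phase. DNA polymerase alpha with its primase starts each strand, DNA polymerase epsilon extends the leading strand on the PCNA clamp that replication factor C loads, FEN1 and DNA ligase 1 join the lagging-strand fragments, and enzymes of nucleotide synthesis supply the building blocks. E2F transcription factors and cyclin E drive entry into S phase, and many genes of this set are E2F targets. Macrophages in M-CSF divide, and both IFN-gamma and IL-4 are known to slow the division of bone marrow-derived macrophages.

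A promoter feature that the choice of genes did not use is shown first, because E2F binding words are what this gene class is best known for. RefSeq promoters (GRCm38.p6, 250 bases before to 50 after each annotated start) were available for 32 of the 39 genes. The 4 words TTTCCCGC, TTTGGCGC, TTTCGCGC and TTTGCCGC were searched on both strands, and words may overlap each other. Some genes, such as Lig1, E2f2, Mcm7 and Uhrf1, have more than 1 RefSeq start and so more than 1 window. A gene was counted if any of its windows held a word, here and over all genes. A word stood in 14 of these 32 genes (43.8%), against 704 of 27025 genes (2.61%) over all promoters of the same length, which were not matched for base composition. For comparison, CCAAT stood in 19 of 32 (59.4%) against 41.1% of all genes, and the STAT word TTCNNNGAA in 3 of 32 (9.38%) against 9.55%. A word is a match of letters and no measured binding site. The stretch nearest to the RefSeq start of its window is given for each of the 14 genes below, as the 30 bases around it on the strand of the gene. The word or overlapping words of this nearest stretch are in capitals. It began upstream of the RefSeq start in 7 of the 14 genes and downstream in the other 7. A further word outside the nearest stretch stays in lower case, as TTTCGCGC does for Rfc3.
Cdc6 (chr11:98908002-98908031, plus strand): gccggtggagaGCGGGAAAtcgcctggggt
Cdt1 (chr8:122568035-122568064, plus strand): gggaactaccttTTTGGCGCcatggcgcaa
E2f2 (chr4:136172294-136172323, plus strand): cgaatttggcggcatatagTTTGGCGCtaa
Gins3 (chr8:95633507-95633536, plus strand): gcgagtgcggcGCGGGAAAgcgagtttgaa
Lig1 (chr7:13278841-13278870, plus strand): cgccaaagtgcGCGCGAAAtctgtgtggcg
Mcm3 (chr1:20820275-20820304, minus strand): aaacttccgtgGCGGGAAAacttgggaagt
Mcm5 (chr8:75109347-75109376, plus strand): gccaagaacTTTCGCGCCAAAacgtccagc
Mcm6 (chr1:128359734-128359763, minus strand): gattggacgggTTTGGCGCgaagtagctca
Mcm7 (chr5:138171849-138171878, minus strand): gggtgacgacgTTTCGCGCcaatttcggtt
Orc1 (chr4:108579416-108579445, plus strand): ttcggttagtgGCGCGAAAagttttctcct
Pola1 (chrX:93632275-93632304, minus strand): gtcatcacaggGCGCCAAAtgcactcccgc
Pole2 (chr12:69228162-69228191, minus strand): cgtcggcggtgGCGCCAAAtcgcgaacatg
Rfc3 (chr5:151651190-151651219, minus strand): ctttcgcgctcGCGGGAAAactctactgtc
Uhrf1 (chr17:56304117-56304146, plus strand): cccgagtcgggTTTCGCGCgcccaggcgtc

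In Cdt1, E2f2, Lig1, Mcm3, Mcm7, Pole2 and Rfc3 the stretch lay within the first 50 bases after the RefSeq start. In Orc1 and Gins3 it began 27 and 41 bases before that start. RefSeq starts can differ from the gene positions given elsewhere in this text. By those positions the stretches of Cdc6, Gins3, Orc1 and Uhrf1, upstream of the RefSeq start, lie inside the gene. That of E2f2, downstream of its RefSeq start, lies before the gene. Of the 14 genes with a word, 10 fell with IFN-gamma in KO and 10 in WT cells (adjusted p under 0.05 by limma, described below). Their median log2 fold changes were -1.19 and -1.15. Of the 18 genes whose windows held none, 14 fell in KO and 14 in WT cells, with medians of -0.86 and -0.90. Of the 7 genes without a RefSeq promoter, 6 fell in KO and 5 in WT cells, with medians of -0.79 and -0.76. The share of all genes tested that fell was 27.5% in KO and 31.1% in WT cells. The gene with the largest decrease, Rrm2, was among those without a word in this window.

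Before any treatment the genes differed widely in level. Per kilobase of exon, Pcna was highest with 2879 normalized counts in KO and 2299 in WT untreated cells, followed by Mcm6 with 674 in KO and 644 in WT cells. Fen1 was lowest with 6.5 in KO and 7.13 in WT cells. All 39 genes passed the filter of at least 10 normalized counts in at least 3 of the 18 libraries. Fen1 overlaps Tmem258 and Gm10143 on the other strand. Its count is uncertain, because the sources used here do not say whether counting used the strand. Many other genes of the set overlap annotated genes too, and their counts are likewise uncertain. Among them are Pole, Pole2, Pola1, Rrm1 and Chaf1b, with an overlap on the same strand. Rfc2, Rfc4, Orc6, Cdc45, Tk1 and Lig1 have an overlap on the other strand. Within groups, the median coefficient of variation over the 39 genes ran from 7.32% (WT untreated) to 15.0% (WT IL-4). KO untreated replicate 3 was the lowest library of its group for 35 of the 39 genes, with a median deviation of -0.19 on the log2 scale from its group's mean. Without that library, 30 genes fell and 5 rose with IFN-gamma in KO cells, and 23 fell and 2 rose with IL-4, so the counts below changed by 1 gene each. WT untreated replicate 1 was the lowest of its group for 25 genes. WT IL-4 replicate 1 was the lowest for 24 genes, and WT IL-4 replicate 2, the library with the fewest reads, was the highest for 22.

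**Figure D1:**
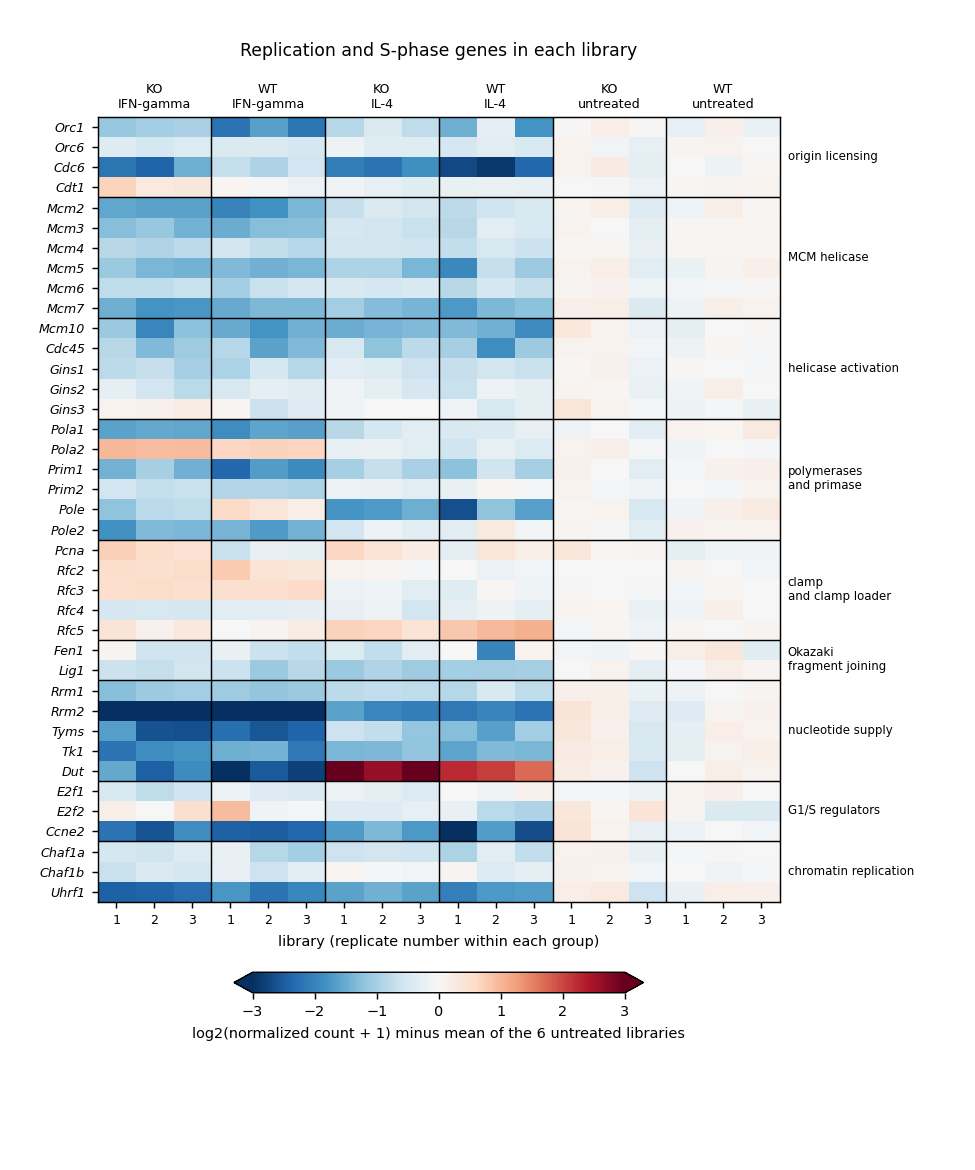
Level of each of the 39 genes (rows, grouped by role) in each of the 18 libraries (columns), as log2(normalized count + 1) minus the mean of the 6 untreated libraries, with blue for lower and red for higher and the colour scale ending at -3 and 3. Most rows are blue in the IFN-gamma and IL-4 libraries, whereas Pola2, Rfc2 and Rfc3 are red with IFN-gamma, and Dut and Rfc5 are red with IL-4.

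With IFN-gamma, 30 of the 39 genes fell and 6 rose in KO macrophages, while 29 fell and 3 rose in WT macrophages. Calls are an adjusted p under 0.05 in limma's moderated test of log2(normalized count + 1), adjusted over all 14288 genes tested. Over those genes, 27.5% fell and 28.3% rose in KO cells, and 31.1% fell and 31.4% rose in WT cells. The median log2 fold change of the set was -0.82 in KO and -0.78 in WT cells, beside -0.01 and -0.01 over the genes tested. All 29 genes that fell in WT cells also fell in KO cells. Pola2, Rfc2 and Rfc3 rose in both genotypes. Gins3, Fen1 and E2f2 were called in neither. In these bulk samples, fewer cells in S phase and less RNA per cell cannot be told apart.

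The rises with IFN-gamma depend on the scaling. Scaled to total assigned reads, the median of all genes moved to -0.36 in KO and -0.31 in WT cells, and the split became 1 rise and 30 falls in KO and 1 rise and 33 falls in WT cells. Pola2 was the gene that kept its rise. Changes here are relative to the authors' size factors, under which the median gene stayed near 0.

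With IL-4, 22 genes fell and 2 rose in KO cells, and 25 fell and 2 rose in WT cells. Over all genes tested, 14.5% fell and 15.8% rose in KO cells, and 14.0% fell and 16.3% rose in WT cells. The median change of the set was -0.52 in KO and -0.65 in WT cells, beside 0.00 and -0.01 over the genes tested. The 22 genes that fell in KO cells also fell in WT cells, in which Orc1, Orc6 and Cdt1 were called in addition. Dut and Rfc5 were the 2 genes that rose, in both genotypes. Scaled to total assigned reads, 30 genes fell and 2 rose in KO cells, and 31 fell and 2 rose in WT cells. Under that scaling Orc1, Orc6 and Cdt1 were also called lower in KO cells, and E2f1, Prim2, Rfc3 and Rfc4 in both genotypes. The IFN-gamma and IL-4 comparisons share their untreated libraries and are therefore given side by side.

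**Figure D2:**
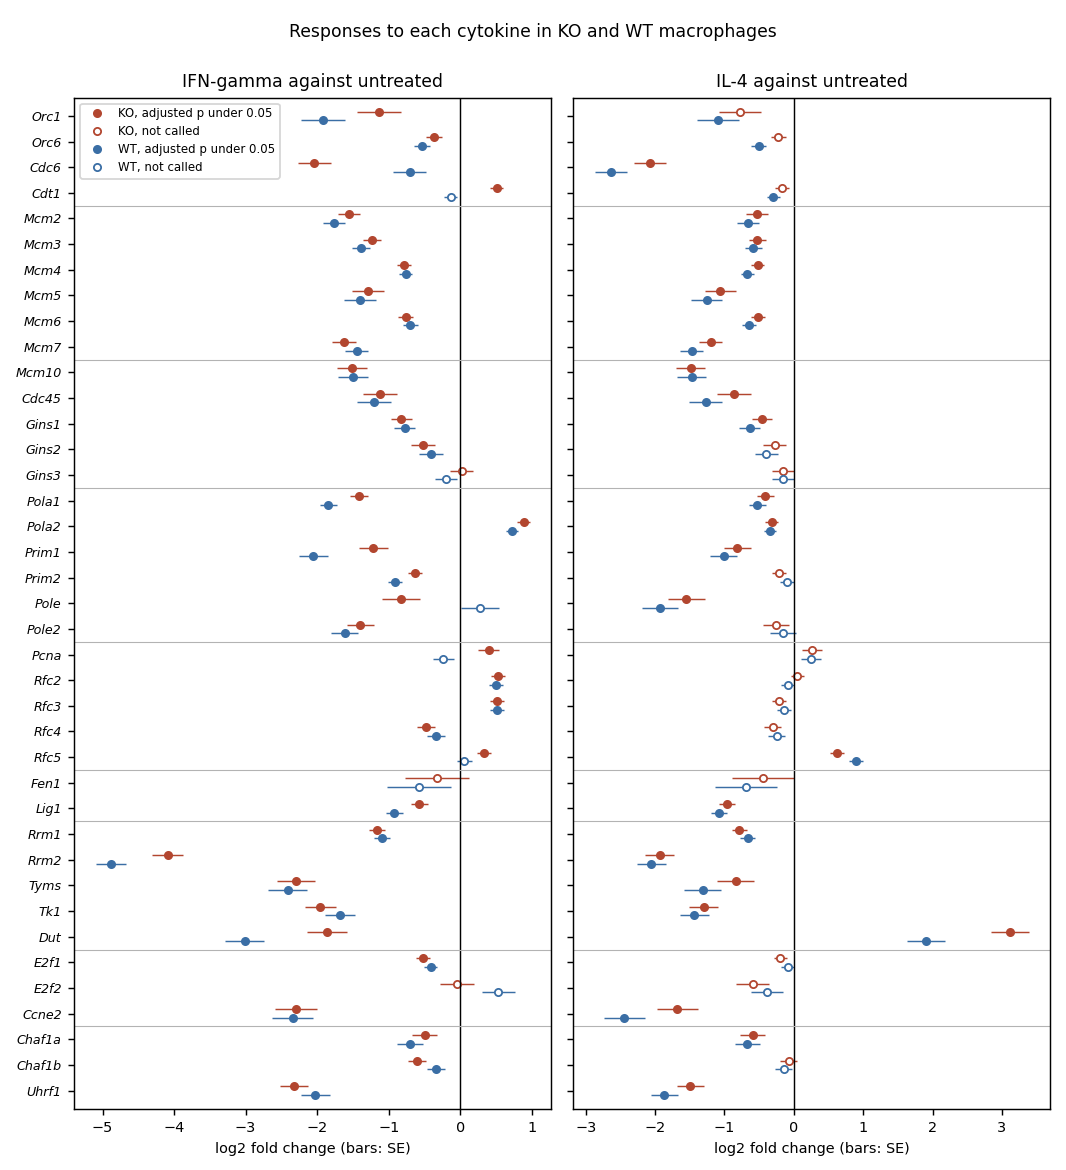
Log2 fold change of each gene with IFN-gamma (left) and IL-4 (right) against untreated cells, in KO (red, upper of each pair) and WT (blue) macrophages. Bars are SE, filled points passed an adjusted p under 0.05, and grey lines separate the roles. Rrm2 lies furthest left with IFN-gamma at -4.09 in KO and -4.88 in WT cells, and Dut is the far point on the right with IL-4 at 3.11 in KO and 1.91 in WT cells.

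Among the licensing genes, Cdt1 (chromosome 8, 122568015 to 122573554, plus strand, GRCm38) encodes the factor that brings the helicase to origins. It stood at 2318, 1796 and 1849.8 normalized counts in KO and 1534, 1399 and 1291 in WT cells with IFN-gamma, at 1354, 1227 and 1131 in KO and 1245, 1272 and 1249.7 in WT cells with IL-4, and at 1456, 1433 and 1288 in KO and 1497, 1552 and 1583 in WT untreated cells. The 3 KO libraries with IFN-gamma were thus the highest of all 18. Cdt1 rose in KO cells with IFN-gamma (log2 fold change 0.51 ± 0.10, SE, adjusted p = 0.000202) and was not called in WT cells (-0.14 ± 0.10, adjusted p = 0.225). Scaled to total assigned reads, the KO rise was not called (0.15, adjusted p = 0.143) and WT cells had a fall (-0.43, adjusted p = 0.000395). Cdt1 overlaps Gm20388 on the same strand, so its count is uncertain.

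Cdc6 (chromosome 11, 98907801 to 98923940, plus strand) encodes the loading factor that works with CDT1. It held 38.5, 32.9 and 64.4 normalized counts in KO and 108, 93.6 and 119 in WT cells with IFN-gamma, 41.3, 37.6 and 49.2 in KO and 26.2, 23.0 and 33.8 in WT cells with IL-4, and 193, 210.5 and 147 in KO and 179, 161 and 185 in WT untreated cells. Both genotypes were near the same level untreated, and with IFN-gamma the KO libraries lay below each WT library. The IFN-gamma change was -2.04 ± 0.23 in KO (adjusted p = 6.83e-07) and -0.71 ± 0.23 in WT cells (adjusted p = 0.0131), and the IL-4 change was -2.07 ± 0.23 in KO (adjusted p = 2.32e-06) and -2.63 ± 0.23 in WT cells (adjusted p = 1.55e-07). The WT call with IFN-gamma was lost without WT IFN-gamma library 2 (adjusted p = 0.0531). Orc1 and Orc6, subunits of the origin recognition complex, fell with IFN-gamma in both genotypes, Orc1 by 1.14 in KO and 1.92 in WT cells and Orc6 by 0.37 in KO and 0.53 in WT cells. The Orc6 call in KO cells was lost without KO untreated library 1 (adjusted p = 0.0591). With IL-4 both fell in WT cells, Orc1 by 1.09 and Orc6 by 0.51. The Orc1 value in KO cells was -0.78 (adjusted p = 0.0659, and 0.0189 with the animal as a replicate block). Leaving out 1 library ended the IL-4 call of Orc1 in WT cells without WT IL-4 library 3 or WT untreated library 2 (adjusted p = 0.056 to 0.0688) and that of Cdt1 in WT cells without WT IL-4 library 3, or WT untreated library 2 or 3 (adjusted p = 0.0568 to 0.0814).

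The 6 genes of the MCM helicase, the motor that unwinds DNA at the fork, fell together in all 4 responses, 6 of 6 each time. The share of all genes tested that fell was 27.5% in KO and 31.1% in WT cells with IFN-gamma, and 14.5% in KO and 14.0% in WT cells with IL-4. Mcm6 (chromosome 1, 128331590 to 128359664, minus strand), stood at 1803, 1798 and 1945 in KO and 1521, 1946 and 2128 in WT cells with IFN-gamma, at 2238, 2113 and 2237 in KO and 1729, 2144 and 1900.5 in WT cells with IL-4, and at 3255, 3368 and 2816 in KO and 2896, 2995 and 3128 in WT untreated cells. Every treated library lay below every untreated one. The median of the 6 changes was -1.26 in KO and -1.39 in WT cells with IFN-gamma, and -0.53 in KO and -0.66 in WT cells with IL-4.

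The size of the change differed among the subunits of the ring. With IFN-gamma, Mcm2 fell by 1.55 in KO and 1.77 in WT cells and Mcm3 by 1.24 in KO and 1.38 in WT cells, whereas Mcm4 fell by 0.79 in KO and 0.76 in WT cells and Mcm6 by 0.76 in KO and 0.70 in WT cells (SE 0.09 to 0.16 for these 4). Mcm2 averaged 287 ± 6.28 in KO and 265 ± 61.4 in WT cells with IFN-gamma, against 856 ± 171 in KO and 890.3 ± 90.3 in WT untreated cells. With IL-4 the order was another, with Mcm7 falling by 1.20 in KO and 1.47 in WT cells and Mcm5 by 1.06 in KO and 1.26 in WT cells. Mcm2 fell by 0.53 in KO and 0.66 in WT cells with IL-4. Its KO call was lost without KO IL-4 library 1, or KO untreated library 1 or 2 (adjusted p = 0.0711 to 0.0938). Mcm7 overlaps 5 annotated genes, among them Cops6 and the microRNA genes in its introns, and its count is uncertain for that reason.

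Of the 5 genes that activate the helicase, Mcm10, Cdc45, Gins1 and Gins2 fell with IFN-gamma in both genotypes. Gins3 was called in none of the 4 responses on the deposited scale with all libraries. With IFN-gamma in WT cells it was called lower when scaled to total assigned reads (-0.50, adjusted p = 0.0126) and without WT IFN-gamma library 1 (-0.39, adjusted p = 0.0274). Gins3, a subunit of the GINS complex, stood at 253, 255 and 270.5 in KO and 243, 148 and 177 in WT cells with IFN-gamma, at 217, 234 and 236 in KO and 217, 167 and 189 in WT cells with IL-4, and at 299, 251 and 223 in KO and 209, 229 and 200.2 in WT untreated cells (chromosome 8, 95633453 to 95645060, plus strand). Mcm10, which helps convert the loaded ring into a running helicase, had similar values under either cytokine. Its change was -1.52 ± 0.21 in KO (adjusted p = 7.91e-06) and -1.50 ± 0.21 in WT cells (adjusted p = 7.19e-06) with IFN-gamma, and -1.49 ± 0.21 in KO (adjusted p = 3.04e-05) and -1.47 ± 0.21 in WT cells (adjusted p = 3.67e-05) with IL-4. Cdc45 fell by 1.12 in KO and 1.21 in WT cells with IFN-gamma and by 0.86 in KO and 1.27 in WT cells with IL-4. Gins1 fell by 0.82 in KO and 0.78 in WT cells with IFN-gamma, and Gins2 by 0.52 in KO and 0.41 in WT cells.

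Several of these calls rested on single libraries. The Gins2 call with IFN-gamma was lost in KO cells without KO IFN-gamma library 3 (adjusted p = 0.0752), and in WT cells without WT IFN-gamma library 1, 2 or 3, or WT untreated library 2 or 3 (adjusted p = 0.0523 to 0.158). With IL-4 the KO calls of Cdc45 and Gins1 were lost without KO IL-4 library 2 (adjusted p = 0.0675) for Cdc45 and without KO IL-4 library 2 or 3, or KO untreated library 1 or 2 (adjusted p = 0.0502 to 0.104) for Gins1. Gins2 in WT cells with IL-4 was -0.40 (adjusted p = 0.0804, and 0.0152 with the replicate block). Gins2 also overlaps Gm20388 and Gse1 on the other strand.

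The polymerase group held subunits that moved in opposite directions. Pola2, the B subunit of DNA polymerase alpha (chromosome 19, 5940542 to 5964202, minus strand), had 1243, 1186 and 1206 normalized counts in KO and 959.5, 1006 and 986 in WT cells with IFN-gamma, 533, 543 and 499 in KO and 415, 531 and 469 in WT cells with IL-4, and 668, 694 and 609 in KO and 569.9, 618 and 603 in WT untreated cells. The IFN-gamma libraries were the highest and the IL-4 libraries the lowest in each genotype, without overlap. Pola2 rose with IFN-gamma by 0.88 ± 0.09 in KO (adjusted p = 1.09e-07) and 0.72 ± 0.09 in WT cells (adjusted p = 1.15e-06) and fell with IL-4 by 0.32 in KO (adjusted p = 0.00872) and 0.34 in WT cells (adjusted p = 0.00557).

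The catalytic subunit of the same enzyme, Pola1, did the reverse under IFN-gamma. It averaged 239.8 ± 6.68 in KO and 221 ± 23.0 in WT cells with IFN-gamma, against 645 ± 68.1 in KO and 793 ± 65.4 in WT untreated cells, log2 fold changes of -1.42 ± 0.12 (adjusted p = 2.38e-08) and -1.84 ± 0.12 (adjusted p = 5.58e-10). The primase subunits fell as well, Prim1 by 1.21 in KO and 2.05 in WT cells and Prim2 by 0.64 in KO and 0.92 in WT cells. With IL-4, Pola1 fell by 0.41 in KO and 0.53 in WT cells and Prim1 by 0.81 in KO and 1.01 in WT cells. Prim2 was not called with IL-4 on the deposited scale (adjusted p = 0.114 in KO and 0.479 in WT cells). The IL-4 call of Pola1 in KO cells was lost without KO IL-4 library 1, or KO untreated library 1 or 2 (adjusted p = 0.0568 to 0.11). Pole2, the accessory subunit of DNA polymerase epsilon, fell by 1.40 in KO and 1.61 in WT cells with IFN-gamma and was not called with IL-4 (adjusted p = 0.352 in KO and 0.58 in WT cells).

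Pole, the catalytic subunit of DNA polymerase epsilon (chromosome 5, 110286306 to 110337474, plus strand), behaved otherwise. It had 147, 197 and 202 normalized counts in KO and 516, 441 and 395 in WT cells with IFN-gamma, 99.8, 105 and 123 in KO and 54.6, 148 and 110.0 in WT cells with IL-4, and 359, 372 and 247 in KO and 319.6, 382 and 413 in WT untreated cells. With IFN-gamma every KO library lay below every WT library, and with IL-4 the genotypes overlapped at the lowest levels of the gene. Pole fell with IFN-gamma in KO cells by 0.83 (adjusted p = 0.0128), a call lost without KO IFN-gamma library 1 or KO untreated library 2 (adjusted p = 0.0557 to 0.063). In WT cells the value was 0.28 ± 0.26 (adjusted p = 0.375), or -0.02 when scaled to total assigned reads. With IL-4 it fell by 1.55 in KO (adjusted p = 0.000194) and 1.93 in WT cells (adjusted p = 2.33e-05).

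The clamp and its loader were the group in which rises were most frequent, with 4 of 5 genes higher in KO and 2 of 5 higher in WT cells with IFN-gamma. Over all genes tested, 28.3% rose in KO and 31.4% in WT cells. Scaled to total assigned reads, none of these clamp and loader rises was called. Pcna encodes the sliding clamp that tethers polymerases to DNA (chromosome 2, 132249162 to 132253314, minus strand). Its level was 10032, 8835 and 8390.4 in KO and 3905, 5159 and 5042 in WT cells with IFN-gamma, 9539, 8186 and 7224 in KO and 5064, 7915 and 6947 in WT cells with IL-4, and 7771, 6429 and 6532 in KO and 5141, 5669.6 and 5743 in WT untreated cells. The KO libraries with IFN-gamma all lay above the WT libraries with IFN-gamma, and WT replicate 2 with IFN-gamma lay just above WT untreated replicate 1.

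Pcna rose with IFN-gamma in KO cells (0.40 ± 0.15, adjusted p = 0.0286). This call was lost without KO IFN-gamma library 1, or KO untreated library 2 or 3 (adjusted p = 0.0866 to 0.112) and when scaled to total assigned reads (0.04, adjusted p = 0.796). In WT cells its value was -0.24 ± 0.15 (adjusted p = 0.163), and with the replicate block it was called lower (adjusted p = 0.0135). It was also called lower in WT cells when scaled to total assigned reads (-0.54, adjusted p = 0.00259) and under quantile normalization (-0.59, adjusted p = 0.00195). With IL-4 the values were 0.26 ± 0.15 in KO (adjusted p = 0.197) and 0.24 ± 0.15 in WT cells (adjusted p = 0.223), and with the replicate block both were called higher (adjusted p = 0.0154 in KO and 0.0232 in WT cells).

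Rfc2 and Rfc3, small subunits of the clamp loader, rose with IFN-gamma by 0.52 ± 0.09 and 0.51 ± 0.10 in KO cells and by 0.50 ± 0.09 and 0.52 ± 0.10 in WT cells (largest adjusted p = 0.000227). Rfc2 averaged 2487 ± 66.2 in KO and 2499.8 ± 436 in WT cells with IFN-gamma, against 1728 ± 8.61 in KO and 1751 ± 104 in WT untreated cells. Scaled to total assigned reads, neither passed in either genotype (Rfc2 adjusted p = 0.109 in KO and 0.0623 in WT cells, Rfc3 0.146 in KO and 0.0518 in WT cells). Rfc4 fell by 0.47 in KO and 0.34 in WT cells with IFN-gamma. Its WT call was lost without WT IFN-gamma library 1 or 2, or WT untreated library 2 or 3 (adjusted p = 0.0544 to 0.116). Under quantile normalization Rfc4 was called in neither genotype (-0.30, adjusted p = 0.063 in KO and -0.14, adjusted p = 0.368 in WT cells). None of these 3 was called with IL-4 on the deposited scale.

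Rfc5, a further loader subunit, was the member of the group that rose with IL-4. It had 833, 805 and 688 normalized counts in KO and 908, 1009.8 and 1093 in WT cells with IL-4, against 494, 533 and 479 in KO and 530.0, 524 and 551 in WT untreated cells, with no overlap. The IL-4 rise was 0.62 ± 0.10 in KO (adjusted p = 0.000116) and 0.90 ± 0.10 in WT cells (adjusted p = 2.51e-06). With IFN-gamma it stood at 682, 565 and 648 in KO and 514, 551 and 608 in WT cells. The rise of 0.33 ± 0.10 in KO cells (adjusted p = 0.0103) was lost without KO IFN-gamma library 1 (adjusted p = 0.0523) and was -0.02 when scaled to total assigned reads. Rfc5 overlaps Wsb2 on the other strand.

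Lig1, DNA ligase 1 (chromosome 7, 13277283 to 13311433, plus strand), stood at 714, 670.2 and 758 in KO and 713, 515 and 620.3 in WT cells with IFN-gamma, at 516, 592 and 526 in KO and 547, 538 and 558 in WT cells with IL-4, and at 1119.9, 1186 and 901 in KO and 1057, 1256 and 1175 in WT untreated cells. It fell with IFN-gamma by 0.57 in KO (adjusted p = 0.000474) and 0.92 in WT cells (adjusted p = 2.32e-06), and with IL-4 by 0.96 in KO (adjusted p = 6.29e-06) and 1.08 in WT cells (adjusted p = 2e-06). All treated libraries lay below the untreated ones. Fen1, the flap endonuclease, was at 3.28 to 20.7 normalized counts over the 18 libraries, and no difference was detectable at this depth.

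The genes of nucleotide supply fell most with IFN-gamma, 5 of 5 in each genotype, with a median of -1.95 in KO and -2.41 in WT cells. The share of all genes tested that fell was 27.5% in KO and 31.1% in WT cells. Rrm2 encodes the S-phase subunit of ribonucleotide reductase, the enzyme that makes deoxyribonucleotides (chromosome 12, 24708241 to 24714146, plus strand). It had 46.7, 34.6 and 56.5 normalized counts in KO and 23.6, 21.4 and 25.9 in WT cells with IFN-gamma, 248, 194 and 177 in KO and 169, 190.2 and 162 in WT cells with IL-4, and 990.4, 846 and 577 in KO and 578, 791 and 825 in WT untreated cells. The IFN-gamma libraries were the lowest, the IL-4 libraries in between and the untreated ones the highest, without overlap. The means with IFN-gamma were 5.71% of untreated in KO and 3.23% in WT cells, log2 fold changes of -4.09 ± 0.21 (adjusted p = 2.05e-11) and -4.88 ± 0.21 (adjusted p = 1.69e-12). With IL-4 they were -1.94 ± 0.21 in KO (adjusted p = 1.76e-06) and -2.05 ± 0.21 in WT cells (adjusted p = 1.01e-06).

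Rrm1, the large subunit of the same enzyme, changed less. It stood at 926, 1055 and 1087 in KO and 1075, 979.6 and 1034 in WT cells with IFN-gamma, at 1307, 1342 and 1326 in KO and 1228, 1626.2 and 1321 in WT cells with IL-4, and at 2468, 2481 and 1942 in KO and 2014, 2214 and 2368 in WT untreated cells (chromosome 7, 102441695 to 102469771, plus strand). Its change was -1.16 in KO and -1.09 in WT cells with IFN-gamma and -0.78 in KO and -0.67 in WT cells with IL-4. Tyms, which makes thymidylate, fell by 2.30 in KO and 2.41 in WT cells with IFN-gamma, and Tk1, which salvages thymidine, by 1.95 in KO and 1.68 in WT cells. With IL-4, Tyms fell by 0.84 in KO and 1.31 in WT cells and Tk1 by 1.30 in KO and 1.44 in WT cells. The IL-4 call of Tyms in KO cells was lost without KO IL-4 library 3, or KO untreated library 1 or 2 (adjusted p = 0.0855 to 0.117).

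Dut, the dUTPase that keeps uracil out of DNA, changed in opposite directions under the 2 cytokines (chromosome 2, 125247190 to 125258608, plus strand). It had 86.1, 45.0 and 67.8 normalized counts in KO and 22.6, 42.8 and 35.4 in WT cells with IFN-gamma, 2693, 1550.0 and 2050.4 in KO and 1196, 1072 and 817 in WT cells with IL-4, and 293, 275 and 162 in KO and 255, 283 and 271 in WT untreated cells. Each IL-4 library exceeded every other library of its genotype, and each IFN-gamma library lay below them. The change was -1.86 ± 0.28 in KO (adjusted p = 1.58e-05) and -3.01 ± 0.28 in WT cells (adjusted p = 3.33e-08) with IFN-gamma, and 3.11 ± 0.28 in KO (adjusted p = 1.46e-07) and 1.91 ± 0.28 in WT cells (adjusted p = 3.92e-05) with IL-4. No other gene of the set both fell with IFN-gamma and rose with IL-4 by these calls. The IL-4 means were 8.61 times untreated in KO and 3.81 times in WT cells.

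**Figure D3:**
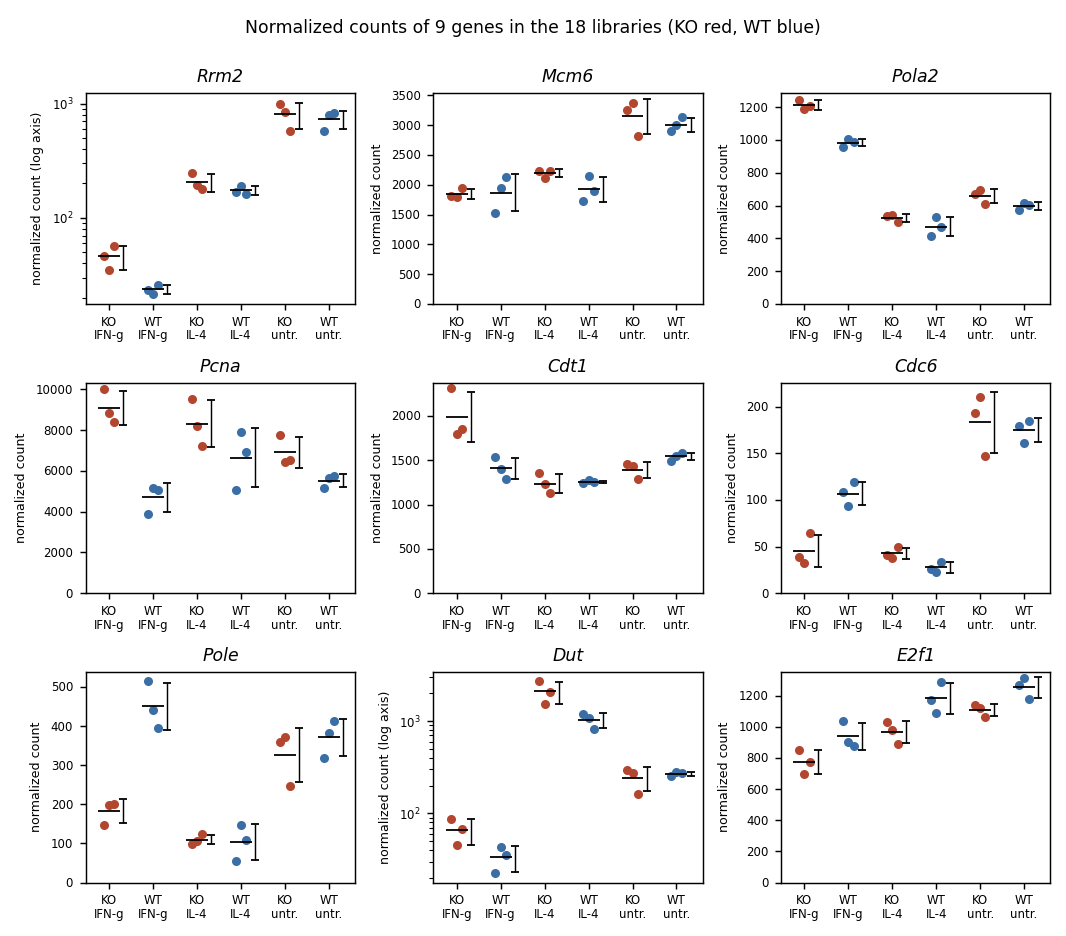
Normalized counts of 9 genes in each of the 18 libraries, with KO in red and WT in blue. Each point is a library, the line is the mean of 3 and the bar beside it is ± SD; Rrm2 and Dut have a log axis, the others start at 0. Pola2 and, in KO cells, Pcna and Cdt1 are highest with IFN-gamma, Dut is highest with IL-4, and Cdc6 and Pole are lower in KO than in WT cells with IFN-gamma.

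Among the G1/S regulators, Ccne2, which encodes cyclin E2, fell by 2.30 in KO (adjusted p = 2.8e-06) and 2.35 in WT cells (adjusted p = 1.76e-06) with IFN-gamma, and by 1.68 in KO (adjusted p = 0.000248) and 2.44 in WT cells (adjusted p = 5.57e-06) with IL-4. It averaged 48.3 ± 12.3 in KO and 40.7 ± 1.55 in WT cells with IFN-gamma, 73.7 ± 11.3 in KO and 42.1 ± 23.9 in WT cells with IL-4, and 239.7 ± 51.0 in KO and 211 ± 13.5 in WT untreated cells. E2f1, an activating E2F factor, changed less (chromosome 2, 154559407 to 154569892, minus strand). It stood at 851, 696 and 775 in KO and 1039, 905 and 876 in WT cells with IFN-gamma, at 1034, 979.7 and 893 in KO and 1173, 1089 and 1285 in WT cells with IL-4, and at 1139, 1122 and 1065 in KO and 1271, 1311 and 1176 in WT untreated cells. It fell with IFN-gamma by 0.52 in KO (adjusted p = 0.000114) and 0.42 in WT cells (adjusted p = 0.000812). With IL-4 it was not called on the deposited scale.

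E2f2, a second activating factor, varied between animals. It was at 1007, 871 and 1226 in KO animals 1 to 3 and 1707, 829 and 869 in WT animals 1 to 3 with IFN-gamma, at 681, 679.9 and 741 in KO and 764, 508 and 469 in WT animals with IL-4, and at 1116, 918 and 1156 in KO and 942, 653 and 659.9 in WT animals untreated. WT animal 1 was the highest WT animal in every treatment. Without the animal, limma called no E2f2 response over all libraries on the deposited scale, while edgeR (adjusted p = 0.0377) and DESeq2 (0.0225) called the WT response to IFN-gamma and DESeq2 (0.0378) the KO response to IL-4. With the animal as a replicate block, E2f2 rose with IFN-gamma in WT cells (0.53, adjusted p = 0.00029, against 0.0576 without the block) and fell with IL-4 in KO (-0.60, 0.00029 against 0.0652) and WT cells (-0.39, 0.00797 against 0.231). Leaving out 1 library also brought the WT value with IFN-gamma past the threshold, without WT IFN-gamma library 2 or 3, or WT untreated library 1 (adjusted p = 0.0214 to 0.0312).

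Uhrf1, which carries DNA methylation marks over to the new strand, fell by 2.33 in KO (adjusted p = 1.48e-08) and 2.02 in WT cells (adjusted p = 7.22e-08) with IFN-gamma, and by 1.49 in KO (adjusted p = 1.32e-05) and 1.87 in WT cells (adjusted p = 1.26e-06) with IL-4. Its means were 123 ± 7.64 in KO and 164 ± 26.0 in WT cells with IFN-gamma, against 642 ± 195 in KO and 670.2 ± 102 in WT untreated cells. The subunits of chromatin assembly factor 1, which places histones behind the fork, changed less. Chaf1b (chromosome 16, 93883901 to 93906115, plus strand) stood at 241, 281 and 263 in KO and 319, 249.1 and 303 in WT cells with IFN-gamma, at 396, 375 and 359 in KO and 401, 289 and 313 in WT cells with IL-4, and at 420.1, 411 and 361 in KO and 377, 357 and 367 in WT untreated cells. It fell with IFN-gamma by 0.60 in KO and 0.34 in WT cells, the WT call being lost without WT IFN-gamma library 2, or WT untreated library 1 or 3 (adjusted p = 0.054 to 0.133). Chaf1a fell with IFN-gamma by 0.50 in KO and 0.70 in WT cells and with IL-4 by 0.59 in KO and 0.67 in WT cells. Its KO calls were lost without KO IFN-gamma library 1 or 2, or KO untreated library 1 or 2 (adjusted p = 0.0549 to 0.0887) for IFN-gamma and without KO untreated library 1 or 2 (adjusted p = 0.0675 to 0.0733) for IL-4.

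Set directly against IL-4, a comparison added after the data had been seen, IFN-gamma gave 17 lower and 6 higher genes in KO cells and 14 lower and 6 higher genes in WT cells. Over all genes tested, 27.4% were lower and 27.5% higher in KO cells, and 29.7% were lower and 30.8% higher in WT cells. The log2 ratio of IFN-gamma to IL-4 was -4.97 in KO and -4.92 in WT cells for Dut, -2.16 in KO and -2.83 in WT cells for Rrm2, and -1.01 in KO and -1.31 in WT cells for Pola1. Pola2 was higher by 1.21 ± 0.09 in KO and 1.07 ± 0.09 in WT cells. Cdc6 was higher with IFN-gamma than with IL-4 in WT cells (1.92 ± 0.23, adjusted p = 1.21e-06), and in KO cells its value was 0.03 ± 0.23 (adjusted p = 0.92). Scaled to total assigned reads, the KO split became 4 higher and 23 lower. With the replicate block, Mcm6 (-0.25, adjusted p = 0.0249 against 0.0555), Prim1 (-0.40, 0.0227 against 0.0969) and E2f2 (0.55, 0.000264 against 0.0567) were called in KO cells as well.

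In untreated macrophages the KO and WT levels of the set were close, and none of the 39 genes was called in either direction by limma, edgeR or DESeq2. Over all genes tested, 1.46% were higher and 0.525% lower in KO cells. At an unadjusted p under 0.05 there were 3 genes of the set. The median difference was -0.03 on the log2 scale. Among the values furthest from 0 were E2f2 at 0.51 ± 0.23 (adjusted p = 0.388) and Pcna at 0.32 ± 0.15 (adjusted p = 0.386).

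With IFN-gamma, 8 genes were higher and 3 lower in KO than in WT macrophages. Over all genes tested, 14.3% were higher and 13.6% lower, so the total for the set, 11 of 39, was near the share over the whole table. The higher genes were Orc1, Cdt1, Gins3, Pola2, Prim1, Pcna, Rrm2 and Dut, and the lower ones Cdc6, Pole and E2f1. In each of the 11, the KO and WT libraries did not overlap. This adds little to the calls, because genes called from 3 libraries against 3 tend to separate. The share of all genes without overlap was not counted. None of the 6 Mcm genes was called (values of -0.26 to 0.14).

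Pcna was 1.93 times as high in KO as in WT cells with IFN-gamma (0.96 ± 0.15, adjusted p = 0.000134), Rrm2 1.94 times (0.91 ± 0.21, adjusted p = 0.00419) and Cdt1 1.41 times (0.49 ± 0.10, adjusted p = 0.00107). Cdc6 in KO cells was 42.3% of WT (-1.27 ± 0.23, adjusted p = 0.000626) and Pole 40.5% (-1.31 ± 0.26, adjusted p = 0.00149). These 5 calls held in each alternative fit that was run. Cdc6 and Cdt1, which load the helicase together, thus differed between KO and WT cells in opposite directions.

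Each of the other 6 calls was lost in at least 1 alternative fit. Prim1 (0.69 ± 0.20, adjusted p = 0.0146) was lost without KO IFN-gamma library 2 or WT IFN-gamma library 1 (adjusted p = 0.0773 to 0.0802), and Dut (0.96 ± 0.28, adjusted p = 0.0152) without KO IFN-gamma library 1 or WT IFN-gamma library 1 (adjusted p = 0.0852 to 0.0854). Pola2 (0.30 ± 0.09, adjusted p = 0.0157) was lost without KO IFN-gamma library 1 (adjusted p = 0.0536). E2f1 (-0.28 ± 0.09, adjusted p = 0.0313) was lost without KO IFN-gamma library 2 or 3, or WT IFN-gamma library 1 (adjusted p = 0.0651 to 0.148). Orc1 (0.96 ± 0.31, adjusted p = 0.0268) was lost without KO IFN-gamma library 1, 2 or 3, or WT IFN-gamma library 1 or 3 (adjusted p = 0.0536 to 0.0883), and Gins3 (0.48 ± 0.16, adjusted p = 0.0312) without KO IFN-gamma library 1, 2 or 3, or WT IFN-gamma library 2 or 3 (adjusted p = 0.0641 to 0.157). Orc1 was at 30.2, 32.9 and 33.9 normalized counts in KO and 13.7, 21.4 and 14.2 in WT cells, so its difference rests on few reads. Summed stromal markers were 414 to 1349 in these KO and 238 to 480 in these WT libraries, and their part in the differences was not tested.

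**Figure D4:**
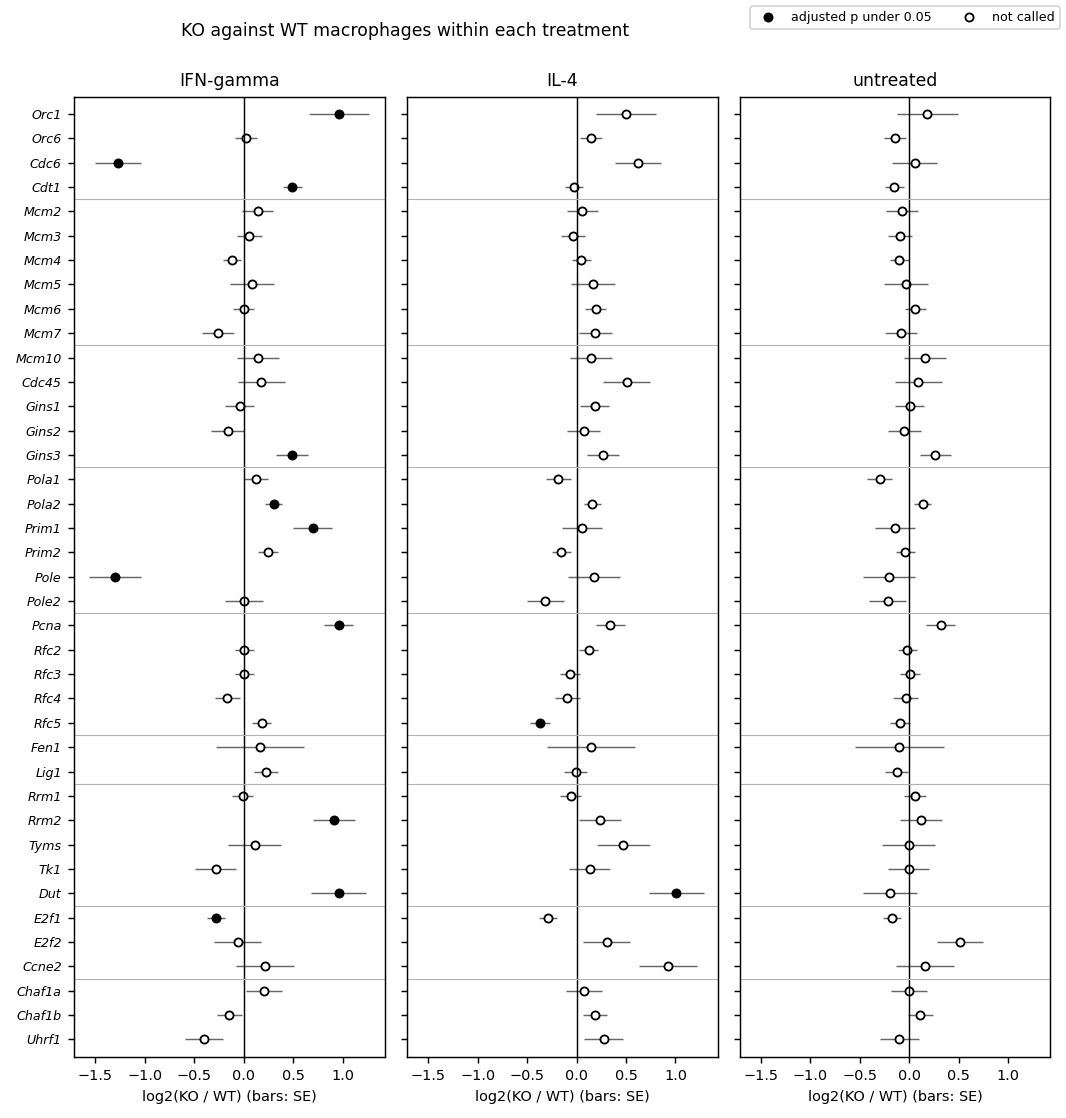
Log2 ratio of KO to WT for each gene within each treatment, with IFN-gamma on the left, IL-4 in the middle and untreated on the right. Bars are SE and filled points passed an adjusted p under 0.05: 11 genes with IFN-gamma, 2 with IL-4 and 0 untreated. Cdc6 and Pole lie furthest to the left with IFN-gamma, at -1.27 and -1.31.

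With IL-4, Dut was higher and Rfc5 lower in KO than in WT cells, 1 gene in each direction, where 3.46% of all genes were higher and 3.13% lower. Dut stood at 2098 ± 573 in KO and 1028 ± 193 in WT cells (1.01 ± 0.28, adjusted p = 0.0361), and Rfc5 at 775 ± 77.3 in KO and 1003 ± 92.7 in WT cells (-0.37 ± 0.10, adjusted p = 0.0348). The Dut call was lost without KO IL-4 library 1 or 3, or WT IL-4 library 2 or 3 (adjusted p = 0.0548 to 0.158), and that of Rfc5 without KO IL-4 library 2 or 3, or WT IL-4 library 2 or 3 (adjusted p = 0.0606 to 0.112). Scaled to total assigned reads, 2 genes, Dut and Ccne2, were higher and 0 lower. Ccne2 was also higher by DESeq2 (1.00, adjusted p = 0.00673), by edgeR (1.01, 0.0391) and without WT IL-4 library 2 (1.35, 0.00319). E2f1 was lower by DESeq2 (-0.30, adjusted p = 0.0308) and without that library (-0.34, 0.0472). Orc1 was higher without that library (0.95, adjusted p = 0.0238). Cdc6, lower in KO than WT cells with IFN-gamma, had a value of 0.62 ± 0.23 with IL-4 (adjusted p = 0.121).

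Whether the response itself differed between genotypes was tested as the KO response minus the WT response. For IFN-gamma, Cdt1 was higher (0.64 ± 0.13, adjusted p = 0.00615) and Cdc6 lower (-1.33 ± 0.33, adjusted p = 0.017), where 4.30% of all genes were higher and 4.84% lower. The Cdc6 call was lost without KO untreated library 2 or WT untreated library 2 (adjusted p = 0.0509 to 0.0519). With the animal as a fixed replicate block the same values gave 6 calls, adding Pcna (0.64, adjusted p = 0.00139 against 0.0639 without it), Prim1 (0.84, 0.0109 against 0.0722), Dut (1.15, 0.029 against 0.0761) and E2f2 (-0.58, 0.0142 against 0.313). With the animal as a random effect E2f2 was not called (adjusted p = 0.17) and Pole was (0.0444). Without 1 library, Dut passed too, without KO IFN-gamma library 2 or WT IFN-gamma library 2 (adjusted p = 0.0357 to 0.0464), and so did Prim1, without WT IFN-gamma library 2 (adjusted p = 0.0382). Pole had -1.11 ± 0.37 (adjusted p = 0.0752, 0.0513 with the block, 0.0327 by edgeR and 0.00715 by DESeq2). For IL-4 none of the 39 genes was called by limma, edgeR or DESeq2, and 1 gene of the whole table was higher (0.00700%). At an unadjusted p under 0.05 there was 1 gene of the set, Dut (1.20 ± 0.39, adjusted p = 0.637).

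In 4 of the 39 genes (10.3%) a protein-coding gene begins head to head on the other strand within 1000 bases, as in 10.3% of the coding genes tested. The Pole start lies 120 bases from that of Pxmp2, which encodes a peroxisomal membrane protein. Pxmp2 had 293, 327 and 312 normalized counts in KO and 970.3, 638 and 692 in WT cells with IFN-gamma, 31.2, 40.7 and 21.9 in KO and 43.7, 32.8 and 41.3 in WT cells with IL-4, and 32.6, 26.0 and 18.8 in KO and 43.8, 51.4 and 44.8 in WT untreated cells. It was lower in KO than in WT cells with IFN-gamma, as Pole was (-1.28 ± 0.23, adjusted p = 0.000693). Pxmp2 rose with IFN-gamma by 3.57 ± 0.23 in KO and 3.99 ± 0.23 in WT cells, where Pole had -0.83 in KO and 0.28 in WT cells. Whether the neighbour bears on the Pole counts was not tested.

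Orc1 begins 87 bases from Prpf38a, a splicing factor gene that rose with IFN-gamma by 1.46 in KO and 1.87 in WT cells while Orc1 fell. Prpf38a was lower in KO than in WT cells with IFN-gamma (-0.42, adjusted p = 0.0014), and Orc1 was higher. Mcm4 begins 466 bases from Prkdc, which encodes the catalytic subunit of the DNA-dependent protein kinase and fell with IFN-gamma by 0.71 in KO and 1.38 in WT cells. Gins1 begins 659 bases from Abhd12, a lipase gene that fell by 0.70 in KO and 0.89 in WT cells. With IFN-gamma the Mcm4 and Gins1 pairs thus fell together, and the Orc1 pair moved apart.

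**Figure D5:**
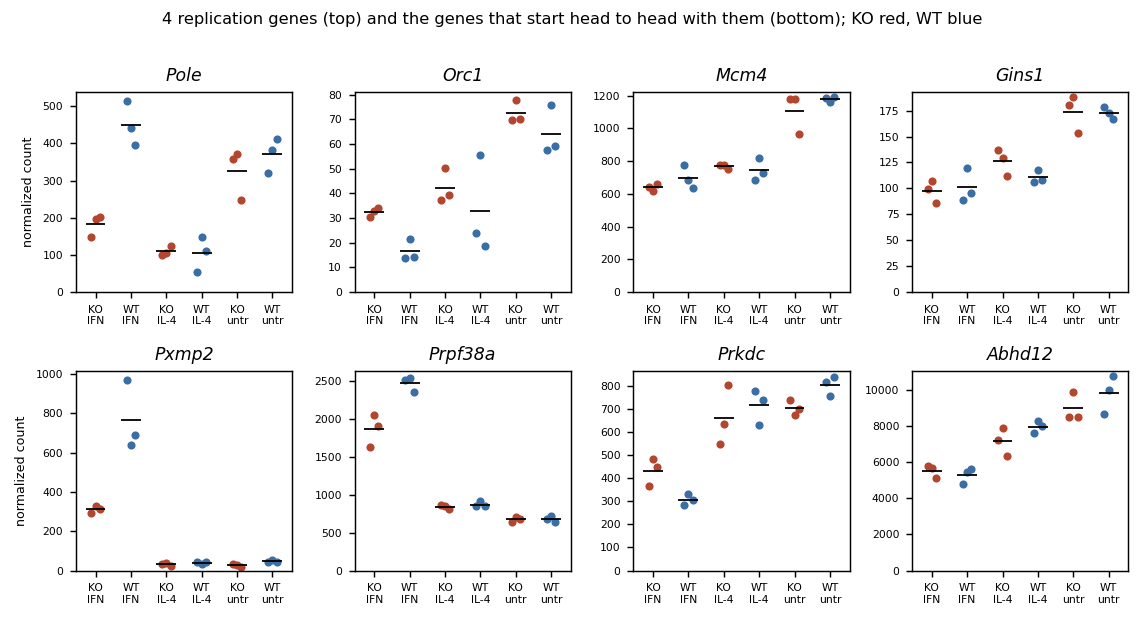
Normalized counts of Pole, Orc1, Mcm4 and Gins1 (top) and of the gene that starts head to head with each (bottom) in the 18 libraries, with KO in red, WT in blue and a line at the mean of each group. With IFN-gamma, Pole and Pxmp2 are both lower in KO than in WT cells, whereas Prpf38a is high where Orc1 is low.

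Of 56 further replication genes, listed by function and with earlier results of these data known, 55 were in the table and all 55 were tested. With IFN-gamma, 28 fell and 13 rose in KO cells, and 24 fell and 15 rose in WT cells, with medians of -0.27 in KO and -0.13 in WT cells, where 27.5% of all genes tested fell and 28.3% rose in KO cells and 31.1% fell and 31.4% rose in WT cells. With IL-4, 24 fell and 5 rose in KO cells, and 23 fell and 4 rose in WT cells, where 14.5% of all genes fell and 15.8% rose in KO cells and 14.0% fell and 16.3% rose in WT cells. Genes with the smallest adjusted p under IFN-gamma were rises, in contrast to most of the 39. Samhd1, which degrades deoxyribonucleotides, averaged 88035 ± 4442 in KO and 104161 ± 3088 in WT cells with IFN-gamma, against 10581 ± 832 in KO and 9832 ± 96.8 in WT untreated cells (3.06 ± 0.08 in KO and 3.40 ± 0.08 in WT cells). Rbl1, the retinoblastoma-like protein p107, rose by 2.04 in KO and 2.24 in WT cells. Ccne1, the gene of cyclin E1, rose by 2.65 ± 0.17 in KO and 2.68 ± 0.17 in WT cells, opposite to Ccne2. Dck, which salvages deoxynucleosides, rose by 1.72 in KO and 2.19 in WT cells, Rnaseh2b, a subunit of RNase H2, by 1.65 in KO and 1.48 in WT cells, and Mcm9, an MCM relative outside the replicative ring, by 1.45 in KO and 1.12 in WT cells.

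With IL-4 the further genes with the smallest adjusted p were mostly decreases. Rpa2, a subunit of the single-strand binding protein, fell by 0.70 in KO and 0.77 in WT cells, Asf1b, a histone chaperone, by 1.21 in KO and 1.05 in WT cells, and Clspn, a fork protein of the checkpoint, by 1.86 in KO and 1.69 in WT cells. E2f8, a repressing E2F factor, fell by 0.65 in KO and 1.20 in WT cells. Samhd1 rose with IL-4 as well, by 0.56 in KO and 0.64 in WT cells.

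KO against WT, 7 of the 55 further genes were higher and 10 lower with IFN-gamma, 2 higher and 0 lower with IL-4, and none was called in untreated cells. Over all genes tested, 14.3% were higher and 13.6% lower with IFN-gamma, 3.46% higher and 3.13% lower with IL-4, and 1.46% higher and 0.525% lower in untreated cells. Wdhd1, a fork scaffold protein, was higher in KO cells with IFN-gamma (0.68, adjusted p = 0.00122). Timeless, a fork protection factor, was lower (-0.86, adjusted p = 0.000534), as were Cdk2 (-0.40, adjusted p = 0.0018), Orc4 (-0.48, adjusted p = 0.00401) and Mcmbp, an MCM-binding protein (-0.34, adjusted p = 0.00339). With IL-4 the higher genes were E2f8 (0.82, adjusted p = 0.00492, and 0.133 with the IL-4 libraries alone in the fit) and Dna2 (0.38, adjusted p = 0.0386), a nuclease, whose call was lost without KO IL-4 library 1, 2 or 3, or WT IL-4 library 2 (adjusted p = 0.0721 to 0.119).

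A list of 20 mitosis genes gives the level of a later part of the cell cycle. With IFN-gamma, 19 of 20 fell in KO and 19 of 20 in WT cells, with medians of -3.16 in KO and -2.87 in WT cells. With IL-4 all 20 fell in each genotype, with medians of -1.77 in KO and -1.81 in WT cells. These medians were larger in size than those of the 39 replication genes. Over all genes tested, 27.5% fell in KO and 31.1% in WT cells with IFN-gamma. With IL-4, 14.5% of all genes fell in KO and 14.0% in WT cells. Summed mitosis levels were 5201 to 5888 in KO and 5109 to 6502 in WT cells with IFN-gamma, 5340 to 6104 in KO and 3779 to 5751 in WT cells with IL-4, and 14248 to 17995 in KO and 12285 to 13443 in WT untreated cells. The exception was Tpx2, a spindle assembly factor, which rose with IFN-gamma by 1.58 ± 0.09 in KO and 2.03 ± 0.09 in WT cells. Tpx2 is part of the summed levels, so the IFN-gamma sums do not show the falls of the other 19 genes alone. Between genotypes, 2 mitosis genes were higher in KO untreated cells (Ccnb1, 0.64, and Tpx2, 0.44), where no replication gene was called. Over all genes tested, 1.46% were higher in KO untreated cells. The KO against WT values of this list with IFN-gamma and IL-4 are not given here.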

How the data were processed

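Libraries were made from poly(A)-selected RNA with a kit that marks the strand, per the labels' protocols. The deposited signal values are gene counts divided by size factors; STAR 2.5, HTSeq 0.6, DESeq2, edgeR and GRCm38 are named in the submitters' processing notes, without their roles. They were turned back into whole reads for 100% of values (tolerance 0.1), so depth is known. Of 21428 rows, 34 identifiers stood on more than 1 and were kept once; 13 columns of group values were not used.

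Genes with at least 10 normalized counts in at least 3 libraries (14288) were fitted with limma 3.58.1 (R 4.3.3) on log2(normalized count + 1), with 6 group means, 12 residual degrees of freedom and Benjamini-Hochberg adjustment over all of them. A fold change on this scale understates that of low genes. Values after ± are SD of 3 libraries for levels and SE for log2 fold changes. The fit was tested on simulated data. edgeR 4.0.16 and DESeq2 1.42.0, run on the recovered reads, called 8172 and 8158 genes with IFN-gamma in KO cells, where limma called 7970. Further alternatives were pseudocounts of 0.5 and 5, other filters and scalings, the animal as a replicate block, and leaving out each library. For KO against WT the fixed block was the replicate number, which pairs KO and WT libraries arbitrarily.

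Within a genotype, libraries of the 3 treatments share a number in the labels, taken here as the animal, so they are paired. The correlation of their deviations from group means had a median of 0.17 (0.0036 to 0.24) and was above 0.1 for 13 of 18 pairs. KO and WT animals are not paired. Members and lists were chosen with earlier results of these data known. The genes named were those with the highest mean of each role and the called ones with the smallest adjusted p per role and comparison; others were added after their values were seen. A single gene of the list of further replication genes is not reported here.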

Additional observations from a re-analysis of the deposited data

Results flagged for a closer look

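For 7 genes the response to IFN-gamma differed between KO and WT macrophages by limma's test of the difference itself, at an adjusted p under 0.05. Among the 39 genes, these were Cdc6, whose log2 change differed by -1.33 (KO minus WT), and Cdt1, whose change was higher by 0.64. Among the further replication genes, the change of Wdhd1 was higher by 0.62 in KO than in WT cells. The change was lower in KO than in WT cells for Timeless (-0.76), Orc4 (-0.62), Cdk2 (-0.42) and Mcmbp (-0.37). Of these 5 further genes, each lost its call in at least 1 alternative fit. The call of Timeless was lost without KO IFN-gamma library 2 or 3, WT IFN-gamma library 2 or 3, KO untreated library 1 or 2, or WT untreated library 1, 2 or 3 (adjusted p = 0.0677 to 0.102). The call of Orc4 was lost without KO IFN-gamma library 1 or WT untreated library 2 (adjusted p = 0.0507 to 0.0639). The call of Cdk2 was lost without KO IFN-gamma library 1 or 2, WT IFN-gamma library 1 or 3, KO untreated library 1, 2 or 3, or WT untreated library 2 or 3 (adjusted p = 0.0531 to 0.0923). The call of Mcmbp was lost without KO IFN-gamma library 1, 2 or 3, WT IFN-gamma library 2 or 3, KO untreated library 1, 2 or 3, or WT untreated library 1, 2 or 3 (adjusted p = 0.0519 to 0.0981). The call of Wdhd1 was lost without KO IFN-gamma library 1, 2 or 3, WT IFN-gamma library 2 or 3, KO untreated library 2 or 3, or WT untreated library 1, 2 or 3 (adjusted p = 0.074 to 0.14). That of Cdc6 was lost without KO untreated library 2 or WT untreated library 2 (adjusted p = 0.0509 to 0.0519), and that of Cdt1 in no alternative.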

How the results depend on the processing

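The total counts of calls in the 6 cytokine responses and contrasts within a genotype stayed within 1.5 times under every alternative. Scaled to total assigned reads, the genes higher with IFN-gamma than untreated became 1 (from 6) in KO and 1 (from 3) in WT cells. Without 1 library each, 32 to 35 of the 39 genes were called with IFN-gamma in KO and 29 to 32 in WT cells, 19 to 25 with IL-4 in KO and 25 to 28 in WT cells, and 18 to 23 in KO and 18 to 21 in WT cells for IFN-gamma against IL-4. For KO against WT with IFN-gamma, 11 calls became 7 with only the groups compared in the fit and 7 to 10 without 1 library. With IL-4, 2 calls became 0 with only the groups compared, 4 with DESeq2 and 0 to 3 without 1 library. For the genotype difference of the IFN-gamma response, 2 calls became 4 with only the groups compared, 6 with the replicate block as a fixed animal effect, 6, not all the same genes, with it as a random one, 6 with DESeq2 and 1 to 4 without 1 library. Fewer libraries were in the fit with only the groups compared; for the others the cause was not tested. The fixed replicate block changed no call beyond those given beside the results; the random one also called Rfc4 with IL-4 in KO cells (-0.31, adjusted p = 0.0447). Scaling to total assigned reads moved the median of all genes to -0.36 in KO and -0.31 in WT cells with IFN-gamma, to -0.14 in KO and -0.17 in WT cells with IL-4, and to -0.22 in KO and -0.13 in WT cells for IFN-gamma against IL-4. It turned the IFN-gamma value of Rfc5 in KO cells to -0.024 (adjusted p = 0.849) and that of Pole in WT cells to -0.020 (adjusted p = 0.952). Of 3193 recomputed calls of the 39 genes, 3057 were kept and 136 lost, 98 of them without 1 library, 12 each under quantile normalization and with only the groups compared, and 10 under total assigned reads. Quantile normalization ended the IFN-gamma calls of Gins2 and Rfc4 in both genotypes, of Orc6 and Pcna in KO cells, and of Cdc6 and Chaf1b in WT cells. In KO cells it also ended the IL-4 calls of Gins1 and Tyms and the calls of Gins1 and Mcm7 for IFN-gamma against IL-4. Depth limits what can be seen of Fen1 and of Orc1 under treatment, which rest on few reads, and the pseudocount understates differences of low genes.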
